A study of Mus musculus with 20 samples.

Results

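The 8 genes described here are the interferon regulatory factors Irf1, Irf5, Irf7, Irf8, and Irf9, the signal transducer Stat2, and the receptor chains Ifnar1 and Ifnar2. They were taken by gene symbol from the 15956 genes in the table of read counts, and all 8 had a row and passed the filter on low counts that 13991 genes passed. The levels came from left ventricle of 20 male mice in 4 diet groups of 5. The diet of the NP group had normal protein and that of the LP group had low protein. The HF group ate a high-fat diet with normal protein and the HF + LP group a high-fat diet with low protein. In the study's list of diet components, carbohydrate was lower with high fat and higher with low protein. Each contrast of fat or protein below therefore also carries a change in carbohydrate, and these cannot be told apart. Every mouse is labelled as 18 months old, although the text of the study gives a younger age at the end of the diets. The labels name no strain and no genetic modification, and the groups differ by diet alone. Body weight in the labels was 33.3 to 52.3 g in NP mice, 29.9 to 36.9 g in LP mice, 56.1 to 60.9 g in HF mice, and 41.2 to 56.1 g in HF + LP mice. No mouse of another group was heavier than the lightest HF mouse, so for the HF group diet and body weight cannot be told apart.

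Type I interferons bind a receptor made of the Ifnar1 and Ifnar2 chains, whose kinases phosphorylate STAT proteins. Stat2 and Irf9 are part of the complex ISGF3, which binds interferon-stimulated response elements and turns on genes that include Irf7, Irf9, and Stat2 themselves. Irf7 in turn drives transcription of interferon genes once it is phosphorylated downstream of nucleic acid sensors. Irf5 acts below Toll-like receptors, Irf8 is a lineage factor of macrophages, dendritic cells, and B cells, and Irf1 is induced strongly by interferon gamma. None of the 21 interferon genes searched for had a row, so the ligands are not analysed here.

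Libraries were QuantSeq 3′ mRNA libraries, in which a transcript gives about 1 read whatever its length, and total counts lay between 12559607 and 23331907 per mouse. Reads on mitochondrial genes made up 35.4% to 47.2% of each library. LP mouse 13 correlated least with its own group, with a median r of 0.908 against 0.944 to 0.979 in the other mice. Markers of other tissue differed widely between mice of a group. The sum of the normalized counts of 4 atrial markers, Sln, Myl7, Myl4, and Nppa, was 245769 in LP mouse 13 and 204498 in HF mouse 1, and it ran from 970 to 87506 in the others, although the labels give left ventricle for every mouse. LP mouse 20 had a summed count of 3486 for 8 T and NK cell markers, whereas the other 19 mice had 33.3 to 130. The sum of 6 cardiomyocyte markers ran from 444254 to 707029. Results that rest on these libraries are given with and without them.

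Levels below are normalized read counts, which are counts scaled to a common library size. Averaged over the 20 mice, the order was Irf1 at 528, Ifnar2 at 430.4, Irf9 at 385, Irf7 at 382, Irf8 at 191, Stat2 at 168, Irf5 at 46.0, and Ifnar1 at 41.0. The ranges of all neighbors in that order overlapped over the mice except those of Stat2, whose lowest value was 84.4, and Irf5, whose highest was 82.1. A gene was called as changed where its adjusted p was under 0.01 and its count averaged more than 50, so Irf5 and Ifnar1 could not be called. Irf7 varied most between mice, from 101 to 1463, and Ifnar2 varied least, from 343 to 532. The plot of counts by mouse shows this difference in spread.

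**Figure D1:**
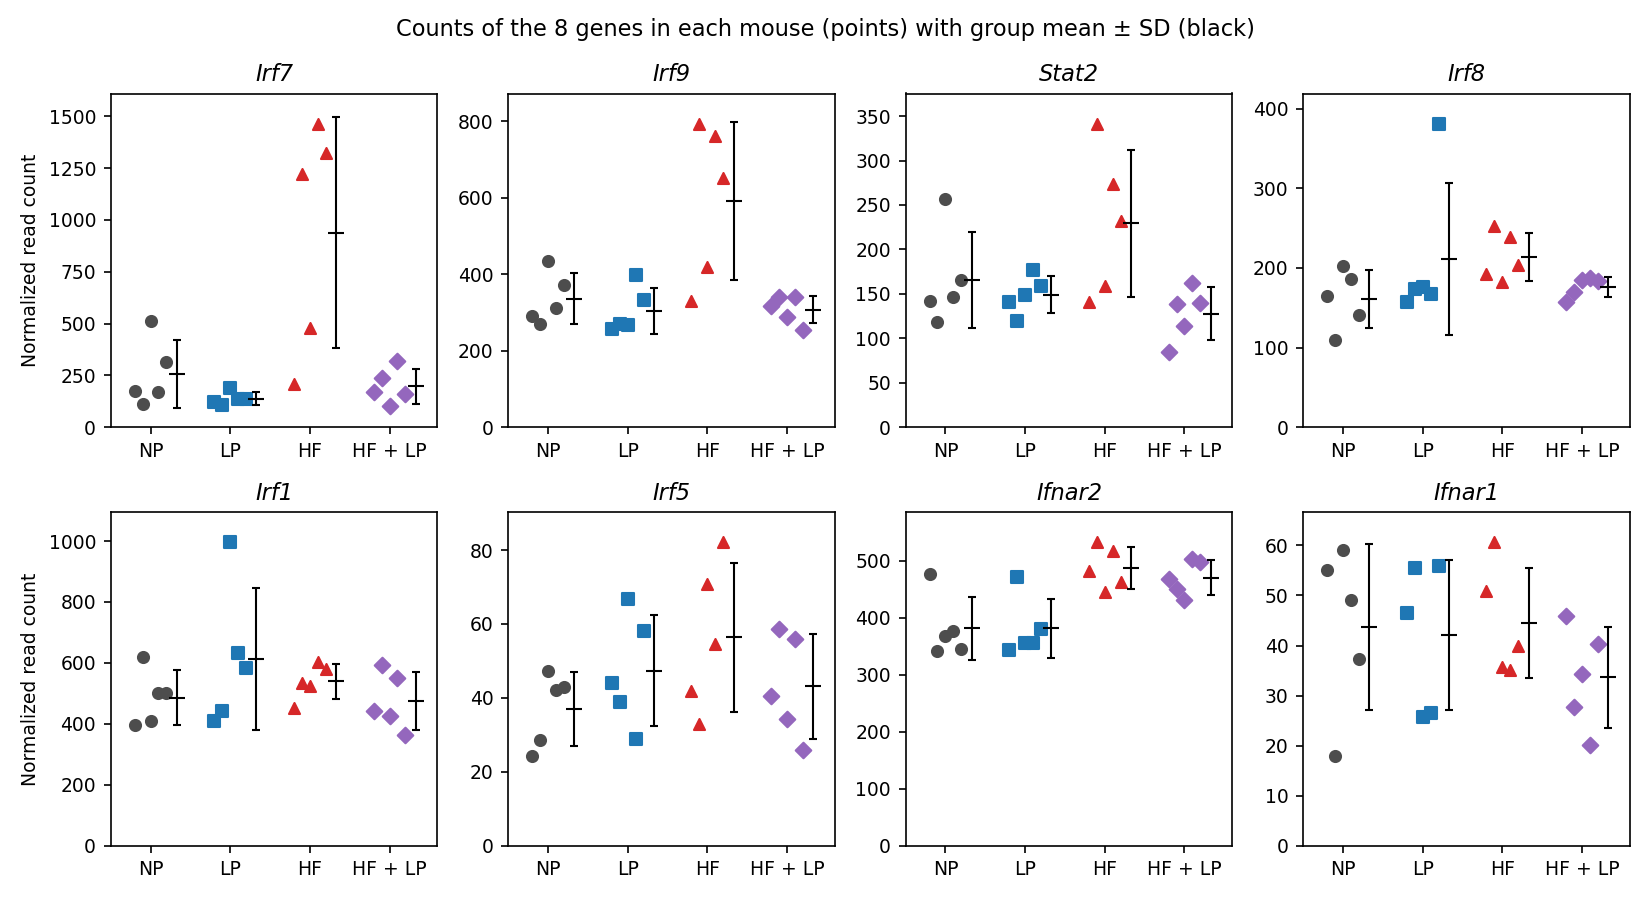
Normalized read count (vertical axis, starting at 0) of each gene in each of the 20 mice by diet group, with black bars for the group mean ± SD (n = 5). Irf7, Irf9, and Stat2 were high in 3 of the 5 HF mice, and Ifnar2 lay between 432 and 532 in all 10 mice on the high-fat diets.

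The promoter windows of Irf7, Irf9, and Stat2 are shown because these genes moved together from mouse to mouse, and that of Irf8 because it held 2 matches to a second motif. The windows were taken from RefSeq (GRCm38.p6) for all 8 genes from before to shortly after each annotated start, which gave 11 windows. They were searched on both strands for GAAANNGAA, the core of the interferon-stimulated response element, and for TTCNNNGAA, the core of the gamma-activated site that STAT dimers bind. Capitals mark a match, and each sequence is written 5′ to 3′ along the strand of its gene.
Irf7, chr7:141266375-141266674, minus strand: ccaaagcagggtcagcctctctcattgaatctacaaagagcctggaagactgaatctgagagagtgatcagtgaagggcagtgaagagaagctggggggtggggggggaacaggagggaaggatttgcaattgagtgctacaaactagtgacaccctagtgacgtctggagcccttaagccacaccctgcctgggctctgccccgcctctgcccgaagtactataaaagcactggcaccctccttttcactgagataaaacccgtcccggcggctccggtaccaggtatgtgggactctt
Irf9, chr14:55603735-55604034, plus strand: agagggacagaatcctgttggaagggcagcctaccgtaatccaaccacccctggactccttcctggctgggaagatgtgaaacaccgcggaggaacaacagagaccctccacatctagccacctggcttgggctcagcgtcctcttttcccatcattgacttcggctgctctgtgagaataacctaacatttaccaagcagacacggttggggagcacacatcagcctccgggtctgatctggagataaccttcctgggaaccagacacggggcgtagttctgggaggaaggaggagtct
Stat2, chr10:128270248-128270547, plus strand: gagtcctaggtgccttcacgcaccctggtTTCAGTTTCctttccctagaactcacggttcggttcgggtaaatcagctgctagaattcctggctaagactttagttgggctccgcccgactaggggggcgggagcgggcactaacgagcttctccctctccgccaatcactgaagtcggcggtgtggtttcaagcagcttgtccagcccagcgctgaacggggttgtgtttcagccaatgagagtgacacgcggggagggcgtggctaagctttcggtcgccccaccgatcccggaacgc
Irf8, chr8:120736108-120736407, plus strand: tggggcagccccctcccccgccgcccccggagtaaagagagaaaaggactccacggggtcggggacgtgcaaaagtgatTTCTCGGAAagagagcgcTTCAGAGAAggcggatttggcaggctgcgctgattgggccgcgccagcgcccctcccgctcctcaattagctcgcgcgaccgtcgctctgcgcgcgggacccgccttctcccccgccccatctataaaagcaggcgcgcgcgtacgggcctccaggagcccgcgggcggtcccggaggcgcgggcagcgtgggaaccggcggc
The response element core occurred in the Stat2 window alone among the 11, on the opposite strand and starting 221 bases before the start site. It occurred in 8.56% of the 32851 mouse windows searched. The gamma-activated core occurred in the first windows of Irf1, Irf8, Ifnar1, and Ifnar2, 90, 171 and 153, 5, and 214 bases before the start, and in 8.3% of all windows. No 2 matches overlapped. The lack of a match in Irf7 and Irf9 says only that these letters are not in these windows. In the GENCODE coordinates Irf9 starts at chr14:55603571, before both of its windows, so the sequence upstream of that start was not searched.

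Whether any diet differed from another was tested first, over the 4 groups at once. Irf7 was called, with an adjusted p of 0.00353 by edgeR's quasi-likelihood test, as were 0.479% of all genes tested. Irf9 followed at an adjusted p of 0.0183 and did not reach the threshold, and 2.4% of all genes were under 0.05. At an unadjusted p under 0.05, 4 of the 8 genes passed (Irf7, Irf9, Stat2, and Ifnar2), where 15.9% of all genes did. No gene of the 8 was called when HF mouse 2, 4, or 5 was left out, where the calls over all genes were 36, 33, and 34, against 67 with all mice. Without these mice the log2 fold change of Irf7 in HF against NP was 1.77, 1.67, and 1.73. None of the 8 was called either with the number in the library names as a factor (38 calls over all genes) or with the replicate block (2 calls). The replicate block fits the animal number as a factor. NP mice 6 and 8 and LP mice 13, 15, and 20 have numbers that no other mouse has, so they add nothing to its contrasts. LP levels under the block rest on LP mice 2 and 5 alone. DESeq2 called Irf7, Irf9, and Ifnar2, beside 2.01% of all genes.

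Irf7, the regulator of interferon production, had the widest range. Its normalized counts were 175, 109.8, 514, 169, and 312 in NP mice 3, 4, 5, 6, and 8, with a mean of 256 ± 162 (SD, n = 5). In LP mice 2, 5, 13, 15, and 20 they were 121, 107, 188, 137, and 134, with a mean of 137 ± 30.8. In HF mice 1 to 5 they were 209, 1219, 479, 1463, and 1325, with a mean of 939 ± 558. HF mice 2, 4, and 5 stood far above every other mouse, whereas HF mice 1 and 3 lay within the NP range. In HF + LP mice 1 to 5 the counts were 169.8, 236, 101, 319, and 161, with a mean of 197 ± 83.3. The highest HF + LP mouse lay below 4 of the 5 HF mice, and the highest LP mouse, at 188, lay below all 5.

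Irf9, the DNA-binding subunit of ISGF3, followed the same mice. It had 292, 269.7, 434, 311, and 372 normalized counts in NP mice 3, 4, 5, 6, and 8, and 255, 271, 268, 398, and 332 in LP mice 2, 5, 13, 15, and 20. HF mice 1 to 5 had 331, 793, 420, 760.3, and 653, and HF + LP mice 1 to 5 had 316, 339.7, 288, 340.5, and 255. HF mice 2, 4, and 5 were again the 3 highest of the 20, and HF mouse 1 was below 2 of the HF + LP mice.

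Stat2, which acts with Irf9 in ISGF3, had 142, 118, 257, 146, and 165 normalized counts in NP mice 3, 4, 5, 6, and 8. In LP mice 2, 5, 13, 15, and 20 it had 141, 120.0, 149, 176, and 159. HF mice 1 to 5 had 141, 341, 159, 274, and 232, whereas HF + LP mice 1 to 5 had 84.4, 139, 114, 162, and 139. HF mice 2 and 4 were the highest of all, NP mouse 5 came next, and the HF and HF + LP groups overlapped through HF mice 1 and 3.

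The first comparison asked what fat did at normal protein. Irf7 was 3.69-fold higher in HF than in NP (log2 fold change 1.88, SE 0.45, adjusted p = 0.0397 by edgeR), and Irf9 was 1.76-fold higher (0.82, SE 0.21, adjusted p = 0.0501). Irf7 was under 0.05, as were 1.37% of all genes, but neither reached the threshold of 0.01, so 0 of the 8 genes were called, where 0.264% of all genes were. At an unadjusted p under 0.05, 4 of the 8 were higher in HF (Irf5, Irf7, Irf9, and Ifnar2) and 0 were lower, where 13.1% of all genes passed and 5.17% passed with a higher level. Over the alternatives run, 3 to 6 of the 8 passed, and Irf7 and Irf9 did so in each. Ifnar2 did not pass with the replicate block (0.32, unadjusted p = 0.0698 by edgeR), and Irf5 did not in 7 of 20 alternatives. The median log2 fold change of the 8 genes was 0.44, against -0.00 over all genes tested. The HF and NP groups overlapped for each of the 8, and 5.67% of all genes had groups that did not. DESeq2 called Irf7 (adjusted p = 0.00169) and Irf9 (adjusted p = 0.00726) in this comparison, as it did 1% of all genes.

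The second comparison asked what protein restriction did on the high-fat diet, and it shares the HF mice with the first. Irf7 was lower in HF + LP than in HF, by a log2 fold change of -2.25 (SE 0.46, adjusted p = 0.134 by edgeR), which is 0.210 times the HF level. Irf9 had a log2 fold change of -0.94 (SE 0.21, adjusted p = 0.178) and Stat2 one of -0.84 (SE 0.24, adjusted p = 0.360). By unadjusted p, Irf7 stood at rank 7 and Irf9 at rank 14 of the 13991 genes. None of the 8 was called by edgeR, and 0% of all genes were. At an unadjusted p under 0.05, 3 of the 8 were lower (Irf7, Irf9, and Stat2) and 0 were higher, where 4.84% of all genes passed and 2.43% passed with a lower level. DESeq2 called Irf7 (adjusted p = 0.000441) and Irf9 (adjusted p = 0.00526), beside 0.101% of all genes. The groups overlapped for all 8 genes here too, whereas 1.18% of all genes had groups that did not.

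**Figure D2:**
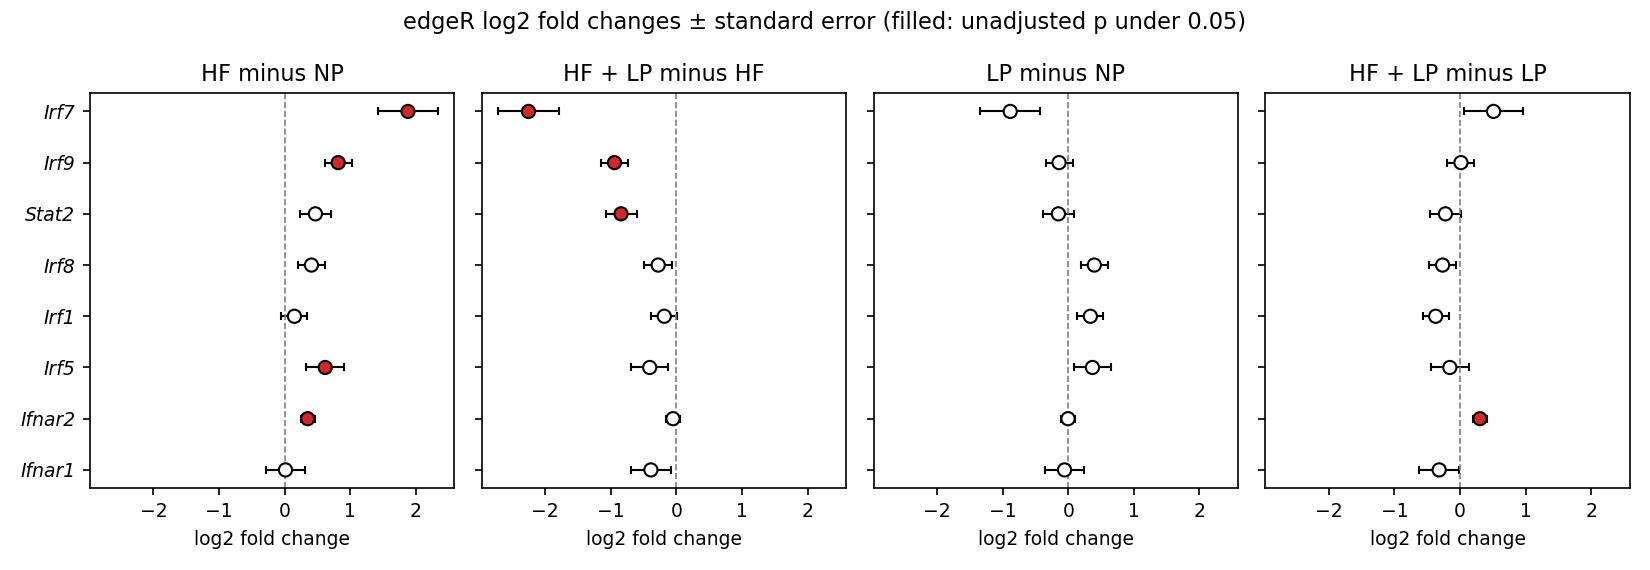
Log2 fold change (horizontal axis) of each gene in 4 comparisons, from edgeR fitted to all 20 mice, with bars for the standard error and filled points for an unadjusted p under 0.05. Irf7 lay at 1.88 in HF minus NP and at -2.25 in HF + LP minus HF, and only Ifnar2 was filled in HF + LP minus LP.

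The atrial marker sum ran against Irf7 among the HF mice. It was 204498 in HF mouse 1 and 73698 in HF mouse 3, the mice with the lowest Irf7, and 1876 to 3228 in HF mice 2, 4, and 5. In the HF + LP group mouse 3 likewise had the highest atrial sum, 87125, and the lowest Irf7, 101. In the other groups the order was not the same. NP mouse 5 had both the highest Irf7 and the highest atrial sum of its group, 60408, and so did LP mouse 13, with 188 and 245769. With HF mouse 1 and LP mouse 13 left out, an alternative chosen after the values were seen that also removes the HF mouse with the lowest Irf7, edgeR called Irf7 (log2 fold change 2.13, adjusted p = 0.00806) and Irf9 (0.96, adjusted p = 0.00883) in HF against NP, where 0.469% of all genes were called. In HF + LP against HF it called Irf7 (-2.52, adjusted p = 0.00999), and Irf9 had an adjusted p of 0.0129, where 0.0427% of all genes were called. The part of atrial tissue in these results was not tested.

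Macrophage markers also had higher levels on the HF diet. All 15 had a higher fitted level in HF than in NP, with a median log2 fold change of 0.49. Of these, 10 were higher at an unadjusted p under 0.05, where 5.17% of all genes were. In HF + LP against HF all 15 had a lower fitted level, with a median of -0.36. Here 3 were lower at an unadjusted p under 0.05, where 2.43% of all genes were. None of the 15 was called by edgeR in either comparison. Their summed normalized count was 6555 to 8347 in NP mice, 8561 to 11183 in HF mice, 6566 to 8948 in HF + LP mice, and 4908 to 11170 in LP mice, and Csf1r and Adgre1, which define the lineage, were above 0 in every mouse. In whole tissue, more cells of a type and more RNA per cell cannot be told apart, and the part of macrophages in the result was not tested.

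Markers of neutrophils and cardiomyocytes and the mitochondrial share moved with the HF diet as well. The 3 neutrophil markers tested, S100a8, S100a9, and Retnlg, were all higher in HF than in NP at an unadjusted p under 0.05, where 5.17% of all genes were. Their median log2 fold change was 1.06, and none was called by edgeR. The summed count of the 4 neutrophil markers with a row was 72.6 to 166 in NP mice, 93.3 to 373 in LP, 69.9 to 293 in HF, and 99.4 to 282 in HF + LP mice. All 3 neutrophil markers tested were also higher at an unadjusted p under 0.05 in LP against NP, where 7.25% of all genes passed in either direction. In HF + LP against HF 0 of the 3 passed and their median was -0.02. The cardiomyocyte sum was 596906 to 707029 in NP mice and 467338 to 585256 in HF mice, so these groups did not overlap. For single genes, 5.67% of all had HF and NP groups that did not. The sum was 444254 to 654163 in LP and 460620 to 685262 in HF + LP mice. All 6 cardiomyocyte markers had a lower fitted level in HF than in NP, and 0 were called. Of these, 3 passed an unadjusted p under 0.05, where 13.1% of all genes did in either direction. In HF + LP against HF all 6 had a higher fitted level, with a median log2 fold change of 0.17, but 0 passed at that level. Reads on mitochondrial genes made up 38.1% to 39.8% of the HF libraries and 41.3% to 47.1% of the NP libraries. They were 35.4% to 44.5% in LP and 38.5% to 47.2% in HF + LP mice. With scaling factors from nuclear genes alone, Irf7 had a log2 fold change of 1.89 in HF against NP and of -2.27 in HF + LP against HF. The part of neutrophils and of cardiomyocyte content in these results was not tested.

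Protein restriction without fat was examined by comparing LP with NP. Of the 8 genes, 0 were called and 0 passed an unadjusted p under 0.05, where 0% and 7.25% of all genes did. Irf7 had a log2 fold change of -0.88 (SE 0.46, adjusted p = 0.718 by edgeR). Its approximate 95% interval ran from -1.79 to 0.03. Intervals here and below were made from the SE and are not those of the test, which can be wider. When single mice were left out it ran from -1.08, without NP mouse 4, to -0.47, without NP mouse 5, which had the highest Irf7 of its group. Irf7 passed an unadjusted p under 0.05 without NP mouse 4 and without LP mouse 13, with DESeq2 (unadjusted p = 0.0385), and with only the compared groups in the model. It also passed without HF mouse 1 and LP mouse 13. With the replicate block, in which LP rests on LP mice 2 and 5 alone, it passed too, at a log2 fold change of -1.59. Irf9 and Stat2 had log2 fold changes of -0.14 and -0.15, with intervals from -0.55 to 0.27 and from -0.62 to 0.32.

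The effect of fat at low protein was examined by comparing HF + LP with LP. Irf7 had a log2 fold change of 0.51 (approximate 95% interval -0.40 to 1.42), and Irf9 one of 0.01 (-0.40 to 0.43). None of the 8 was called, where 0.1% of all genes were, and Ifnar2 alone passed an unadjusted p under 0.05, as did 15.9% of all genes. Ifnar2 did not pass with the replicate block. Nor did it without LP mice 13 and 20, an alternative chosen after the values were seen. Against NP, HF + LP likewise gave 0 called genes of the 8, where 0.0286% of all genes were called, and Ifnar2 alone passed an unadjusted p under 0.05, where 8.78% did.

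The interaction term, which is the log2 effect of fat at low protein minus that at normal protein, was tested for each gene. It was -1.37 for Irf7 (SE 0.64, unadjusted p = 0.0434), -0.80 for Irf9 (SE 0.29, unadjusted p = 0.0118), and -0.68 for Irf8 (SE 0.30, unadjusted p = 0.0343), from edgeR's test. These 3 of 8 passed an unadjusted p under 0.05, as did 7.17% of all genes, but no adjusted p was below 0.668, and 0% of all genes were called. The fitted terms of the other 5 genes were also negative and ran from -0.78 to -0.05. The term of Irf7 had an unadjusted p up to 0.0900 when single mice were left out, whereas that of Irf9 stayed at or below 0.0284. Irf9 alone passed without LP mouse 20, and also without LP mice 13 and 20, an alternative chosen after the values were seen. With the replicate block, in which LP rests on LP mice 2 and 5 alone, 0 of the 8 passed. The term was then -0.44 for Irf7, -0.35 for Irf9, and -0.26 for Irf8. With the protein contrast averaged over both fat levels, added after the values were seen, Irf7 had the smallest unadjusted p of the 13991 genes (log2 fold change -1.57, SE 0.32, unadjusted p = 9.19e-05), yet its adjusted p was 0.389 by edgeR and 0% of all genes were called.

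**Figure D3:**
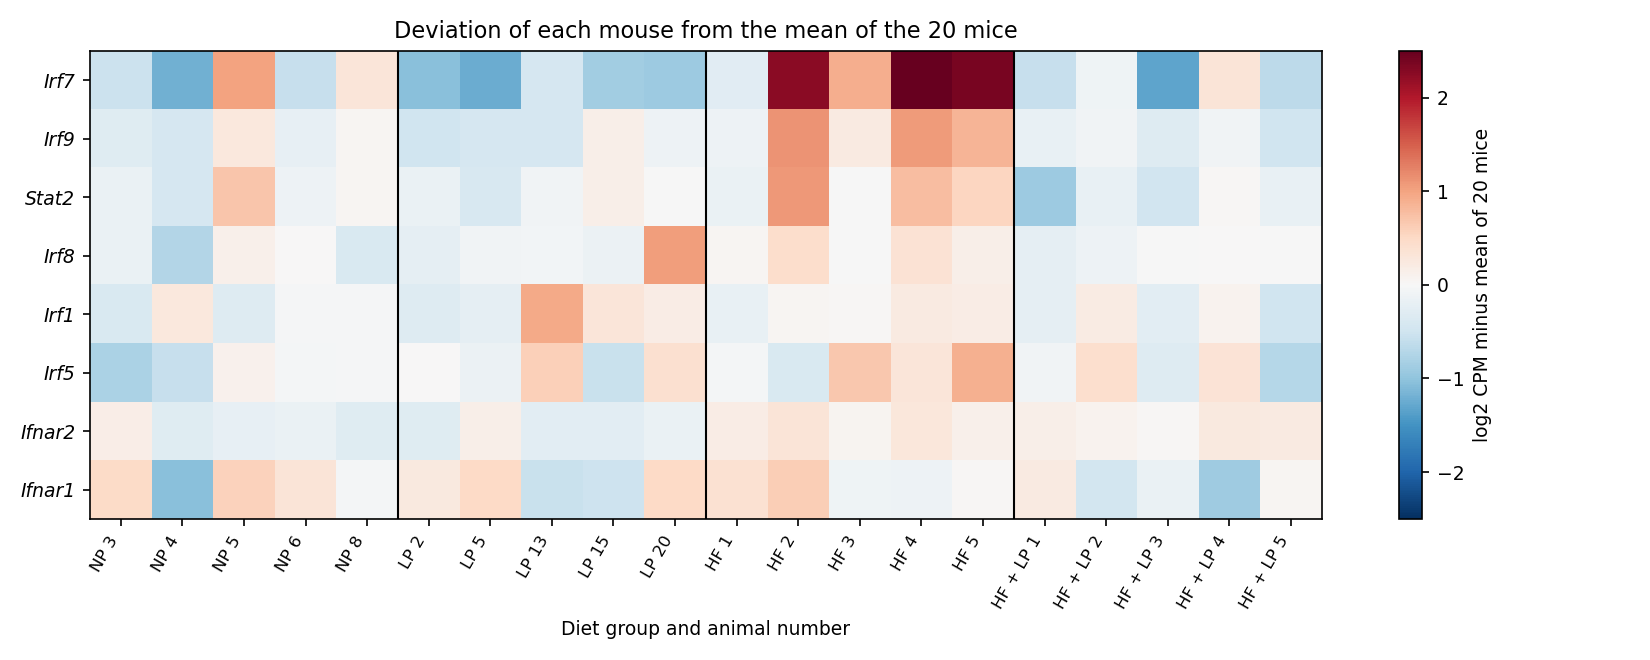
Difference between the log2 CPM of each mouse and the mean of the 20 mice for each gene (color), with mice in columns by diet and animal number. HF mice 2, 4, and 5 and NP mice 5 and 8 were above the mean in each of Irf7, Irf9, and Stat2, and LP mouse 20 stood apart in Irf8 and LP mouse 13 in Irf1.

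Mice of the same diet differed in Irf7, Irf9, and Stat2 together. After the mean of each diet was removed, log2 CPM, the scaled count on a log2 scale, of Irf7 and Irf9 correlated over the 20 mice with Pearson's r = 0.84 and Spearman's rho = 0.83 (permutation p = 0.00043 and 0.0008). Irf7 and Stat2 gave r = 0.82 and rho = 0.81 (permutation p = 0.00044 and 0.0005), and Irf9 and Stat2 gave r = 0.81 and rho = 0.76 (permutation p = 0.00041 and 0.00127). Over the 28 pairs of genes the adjusted p of r was 0.00411 for each of these 3 by permutation. Without the 2 mice farthest from the median of the first gene, r was 0.74, 0.74, and 0.72. Mice shared a library with all the genes compared, so differences in tissue content between libraries enter these values.

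Irf1 and Ifnar1 ran in opposite directions within diets, with r = -0.73 and rho = -0.70 (permutation p = 0.00068 and 0.00274, adjusted p = 0.00476 for r over the 28 pairs by permutation). Without the 2 mice farthest from the median of Irf1, r was -0.76. Ifnar1 had 15 or more reads in every library, so its lowest values rest on few reads. The other 24 pairs had an adjusted p of 0.0506 or more for r, although 2 of them had an adjusted permutation p of 0.0479 for rho. These were Irf8 and Stat2 (rho = 0.54, r = 0.49) and Irf8 and Ifnar2 (rho = 0.60, r = 0.27).

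**Figure D4:**
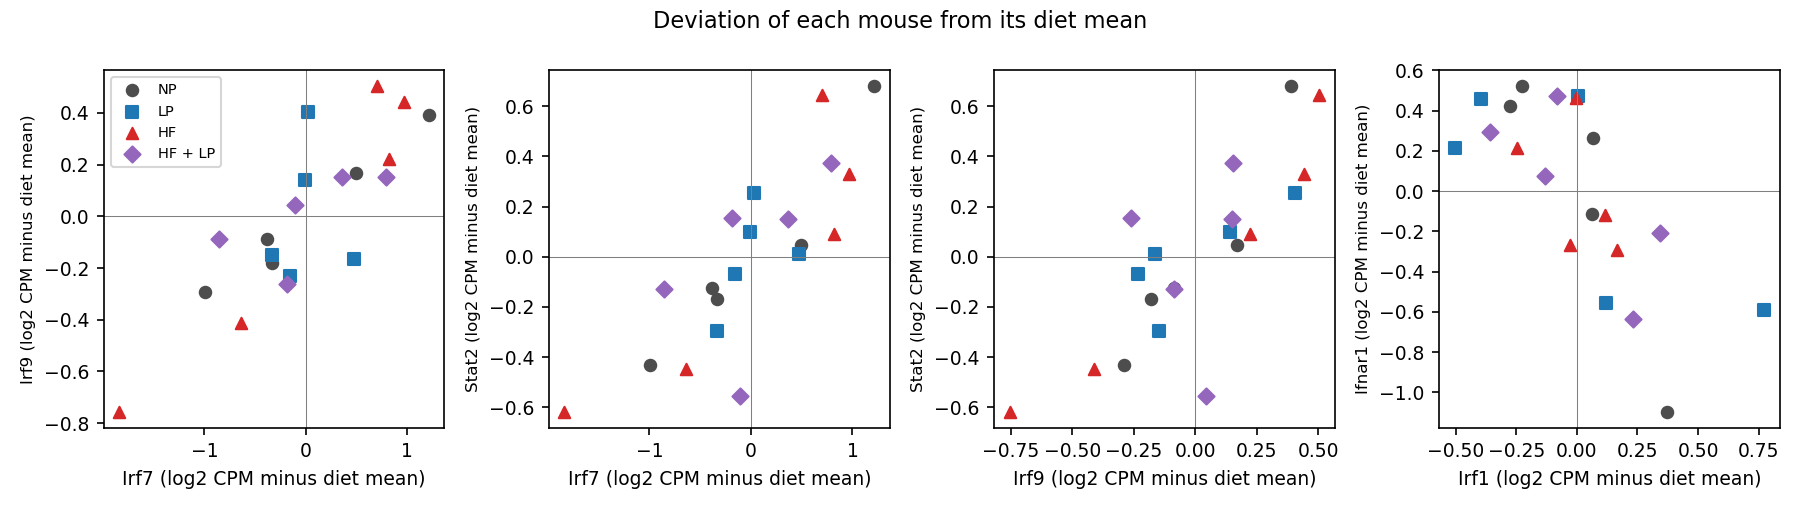
Deviation of log2 CPM from the diet mean in each of the 20 mice for 4 pairs of genes, with a color and symbol for each diet. The points of the first 3 pairs rise together (r of 0.81 to 0.84), and those of Irf1 and Ifnar1 fall (r = -0.73).

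The genes most like each of the 8 were sought among the 10157 others (10158 for Irf5 and Ifnar1) with a mean normalized count over 50, by Pearson's r of log2 CPM over the 20 mice. For Irf7 these were Lgals3bp (r = 0.97), Rtp4 (0.97), Ifit3 (0.96), Ly6a (0.95), and Phf11d (0.94). For Irf9 they were Isg15 (0.94), Usp18 (0.94), Rtp4 (0.94), Oasl2 (0.93), and Irf7 itself (0.93). For Stat2 they were Trim34a (0.86), Ifit3 (0.86), Irf9 (0.85), Rnf213 (0.85), and Adar (0.85). Isg15, a ubiquitin-like modifier, Usp18, the protease that removes it, and Ifit3, an antiviral RNA-binding protein, are textbook interferon-induced genes. Irf5 was most like Cd38 (0.85), and Unc93b1, which escorts endosomal Toll-like receptors, was also among its 5 (0.80). These values describe the 20 mice, and differences between diets enter them.

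Genes that interferon induces were followed in a list of 18 targets, chosen with earlier results of these data known. In HF against NP, 17 of the 18 were higher at an unadjusted p under 0.05, where 5.17% of all genes were. Their median log2 fold change was 1.19, and 0 were called. In HF + LP against HF, 18 of the 18 were lower at that level, where 2.43% of all genes were. Their median was -1.27, and 0 were called. Rtp4, a chaperone of G protein-coupled receptors, was the 1 target called over the 4 diets (adjusted p = 0.00447 by edgeR), and its mean was 269 in NP, 636 in HF, and 259 in HF + LP mice. The summed count of the 18 targets was 10354, 8562, and 8382 in HF mice 2, 4, and 5, 4572 in HF mouse 3, and 2997 in HF mouse 1, which is the order of Irf9 and Stat2 in these mice. In NP mice it was 5139 in mouse 5 and 1787 to 3538 in the others.

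The rest of the pathway was followed by role. The interferon regulatory factors Irf2, Irf3, and Irf4 had an unadjusted p of 0.193 or more by edgeR in HF against NP and of 0.358 or more in HF + LP against HF. Usp18, which also blocks the Ifnar2 chain, is in the list of targets above as well. It was among 2 of 8 inhibitors that passed in HF against NP (1.47, SE 0.39, unadjusted p = 0.00114 by edgeR), where 13.1% of all genes did. It was also the 1 that passed in HF + LP against HF (-1.38, SE 0.38, unadjusted p = 0.00178 by edgeR), where 4.84% did. Of 11 tested genes that activate IRFs, 2 passed in HF against NP and 1 in HF + LP against HF, where 13.1% and 4.84% of all genes did. Their fitted levels were higher for 7 and lower for 4 in the first comparison, with a median log2 fold change of 0.10, and higher for 3 and lower for 8 in the second, with a median of -0.07. The genes that passed were Tmem173 and Cgas. Tmem173, which encodes the DNA-sensing adapter STING, had 0.33 (SE 0.13) and -0.27 (SE 0.13) in these comparisons, with unadjusted p of 0.0177 and 0.0471, and Cgas, its upstream sensor, had 0.44 (SE 0.17, unadjusted p = 0.0147) in the first. None of these genes was called by edgeR in either comparison.

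Irf8 was set apart by 1 mouse. LP mouse 20 had 381 normalized counts, whereas the other LP mice had 157, 173, 176, and 168, NP mice had 109.8 to 202, HF mice 183 to 253, and HF + LP mice 157 to 187. The log2 fold change of LP against NP was 0.40 (SE 0.21) with LP mouse 20 and 0.07 without it, and the interaction term was -0.68 with it and -0.35 without it. In LP mouse 20 the summed counts were 3486 for T and NK cell markers and 9558 for 5 B cell markers, whereas its macrophage sum of 7229 lay within the NP range. The other LP mice had at most 130 and 1806. Of 8 dendritic cell markers, Ccr9, which T cells also express, had 1159 counts in LP mouse 20 and at most 4.75 in the other 19 mice. The sum of the other 7 was 363 in LP mouse 20, within the 282 to 431 of the other LP mice. The genes most like Irf8 over the 20 mice were Cd52 (r = 0.92), Fyb (0.90), Arl6ip1 (0.89), Ptprc (0.89), and Lig1 (0.88), of which Cd52 and Ptprc encode surface proteins of leukocytes. The part of lymphoid cells in the Irf8 level was not tested.

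**Figure D5:**
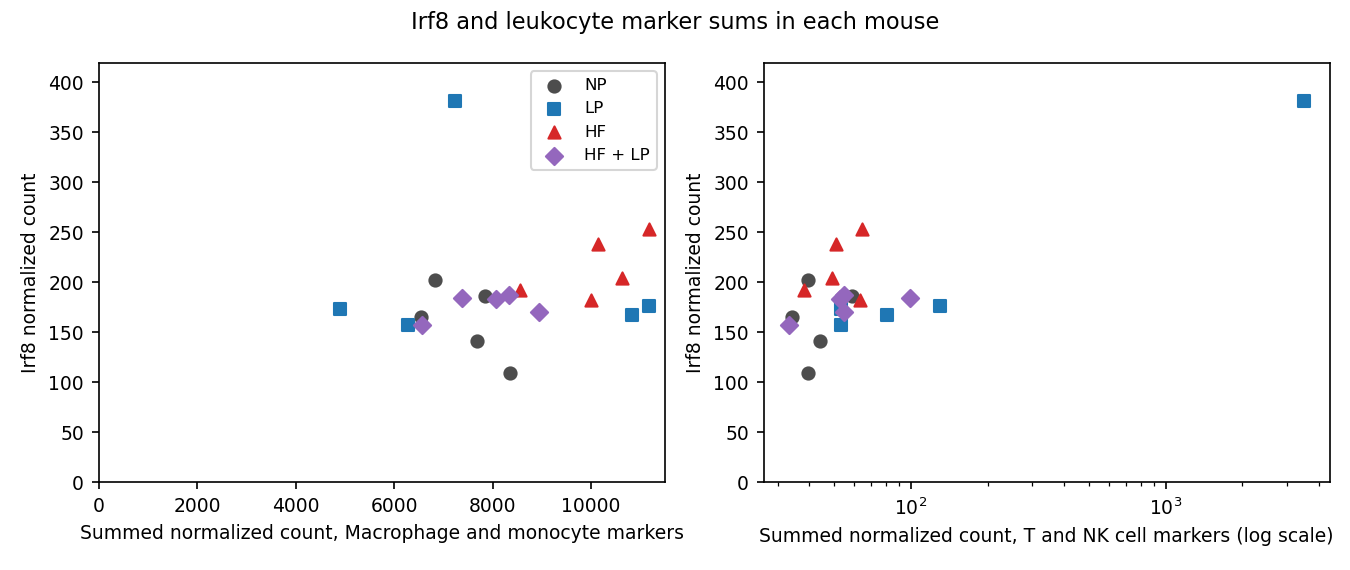
Irf8 normalized count (vertical axis) against the summed count of 15 macrophage and monocyte markers (left, linear axis) and of 8 T and NK cell markers (right, log axis) in each of the 20 mice. LP mouse 20, at 381, had a macrophage sum of 7229 and a T and NK cell sum of 3486, and the other 19 mice stayed at or below 253.

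Irf1 had its highest level, 996, in LP mouse 13, and 364 to 633 in the other 19 mice. The LP mean was 613 ± 234 (SD, n = 5), against 486 ± 90.3 in NP, 539 ± 58.6 in HF, and 475 ± 94.0 in HF + LP mice. The log2 fold change of LP against NP was 0.34 (SE 0.20) with LP mouse 13 and 0.09 without it. LP mouse 13 was also the mouse with the highest atrial sum and the lowest correlation with its group. Its summed count of 4 adipocyte markers, 2998, was the highest too, and LP mouse 20 came next at 1015. The part of these tissues in the Irf1 level was not tested. The gene most like Irf1 was Gm28875 (r = 0.93), a long intergenic RNA on another chromosome.

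Irf5 had 24.2 to 47.2 normalized counts in NP mice, 29.0 to 66.7 in LP, 32.9 to 82.1 in HF, and 25.8 to 58.8 in HF + LP mice. The HF mice with the 3 highest values of Irf5, mice 5, 3, and 4, were not the same as those of Irf7. Its log2 fold change in HF against NP was 0.62 (SE 0.29, adjusted p = 0.363 by edgeR), and without HF mouse 5 it was 0.45 with an unadjusted p of 0.149.

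Ifnar2, the receptor chain with the higher affinity for interferon, had 477, 343, 367, 377, and 345 normalized counts in NP mice 3, 4, 5, 6, and 8 and 343, 471, 356, 355, and 380.3 in LP mice 2, 5, 13, 15, and 20. HF mice 1 to 5 had 482, 532, 444, 517, and 463, and HF + LP mice 1 to 5 had 469, 451, 432, 504, and 498. NP mouse 3 and LP mouse 5 were the only mice on either diet without high fat that exceeded the lowest mouse of both high-fat groups. By edgeR the log2 fold change was 0.35 (SE 0.11, adjusted p = 0.111) for HF against NP and 0.30 (SE 0.11, adjusted p = 0.177) for HF + LP against LP. It was -0.05 (approximate 95% interval -0.27 to 0.16) for HF + LP against HF. The interaction term was -0.05, with an interval from -0.35 to 0.25. Averaged over both protein levels, a contrast added after the values were seen, the log2 fold change for fat was 0.33 (SE 0.08, adjusted p = 0.0171 by edgeR), which was not called at 0.01, where 1% of all genes were.

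Ifnar1, the other chain, had 17.9 to 59.0 normalized counts in NP mice, 25.8 to 56.0 in LP, 35.2 to 60.6 in HF, and 20.2 to 45.8 in HF + LP mice. Its log2 fold change was 0.01 (approximate 95% interval -0.59 to 0.62) in HF against NP and -0.39 (SE 0.31) in HF + LP against HF. Differences within these errors were not detectable at this depth. The 2 receptor genes lie on the same strand of the same chromosome, Ifnar2 at chr16:91372783-91405589 and Ifnar1 at chr16:91485238-91507441 (GRCm38).

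Of the 8 genes, 3 overlap another gene with counts, and whether reads were counted by strand is not given in the sources used here. Irf7 overlaps Phrf1 and Irf5 overlaps Tnpo3 on the opposite strand, and Irf9 overlaps Rnf31 on the same strand. The log2 fold changes of these neighbors in HF against NP were -0.13 (SE 0.10), -0.04 (SE 0.10), and -0.05 (SE 0.21), and in HF + LP against HF they were 0.02 (SE 0.10), 0.03 (SE 0.10), and 0.01 (SE 0.21).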

How the data were processed

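RNA was measured in left ventricle of 20 mice, 5 in each of 4 diet groups taken from the sample titles. The authors deposited a table of raw counts of reads for each mouse by Ensembl identifier, made from QuantSeq 3′ libraries aligned with BlueBee software. The submitters' processing notes name GRCm38 and DESeq2 1.22.2, and the counting program is not given in the sources used here. No listed gene had fewer than 60 reads in all. Symbols were matched for 15917 of 15956 genes.

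Analysis used R 4.3.3. In edgeR 4.0.16, counts passed filterByExpr by diet, were scaled by TMM, and were tested with the quasi-likelihood test in 1 model of all 20 mice, with Benjamini-Hochberg adjustment over the 13991 genes tested. Calls used the study's thresholds, which are a mean normalized count over 50 and an adjusted p under 0.01. DESeq2 1.42.0 was an alternative, as were other scaling, filters, thresholds, the number in the library names, a block on the animal number, and leaving out each mouse. Log2 CPM used a prior count of 2. Correlations used 100000 two-sided permutations within diets. The tests were tried on simulated data. Promoter windows and gene coordinates came from RefSeq and GENCODE tables of GRCm38.

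Named are the 8 genes, genes of fixed lists with the smallest p over the 4 diets, and the 5 genes most like each. The 8 genes and the lists were chosen with earlier results of these data known. The study states that mice were kept 4 to a cage, but the labels do not say which mice shared a cage or litter. P-values measure the spread between mice and treat each mouse as independent, whether or not it shared a cage. Some genes of the pathway lists are not reported here.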

Additional observations from a re-analysis of the deposited data

Results flagged for a closer look

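In LP mouse 20, Irf8 had 381 normalized counts, and the gap to the next LP mouse was larger than Dixon's 95% critical value for 5 samples allows. In NP mouse 3, Ifnar2 had 477, with such a gap to the next NP mouse. These were 2 of 32 groups tested, and chance flags about 1 group in 20.

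The effect of fat differed with the protein level at an unadjusted p under 0.05 for 3 genes in edgeR's test of the interaction. The log2 difference was -1.37 for Irf7 (unadjusted p = 0.0434), -0.68 for Irf8 (unadjusted p = 0.0343), and -0.80 for Irf9 (unadjusted p = 0.0118). The smallest adjusted p among them was 0.668. Without LP mouse 20, the term of Irf8 was -0.35 with an unadjusted p of 0.0967.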

How the results depend on the processing

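Over the alternatives run, Irf7 and Irf9 kept their direction and an unadjusted p under 0.05 in HF minus NP, as did Irf7, Irf9, and Stat2 in HF + LP minus HF. The call at an adjusted p under 0.01 changed. In HF minus NP, 2 of the 8 genes were called by DESeq2, 1 at an adjusted p under 0.05, and 2 without HF mouse 1 and LP mouse 13. In HF + LP minus HF, 2 were called by DESeq2 and 1 without HF mouse 1 and LP mouse 13. Over the 4 diets, 3 were called by DESeq2, 2 at an adjusted p under 0.05, 2 without HF mouse 1 and LP mouse 13, and 0 with the library name number as a factor, and 0 to 2 when each mouse was left out. The cause was not tested. The alternatives without 2 mice were chosen after seeing the data.

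The labels do not say that equal animal numbers link mice of different groups. Same-numbered mice of 2 groups correlated from -0.553 to 0.476. These correlations also carry differences in tissue content, so they cannot settle whether such mice shared a cage, litter, or batch. With the replicate block, 0 genes were called over the 4 diets, and 0 passed an unadjusted p under 0.05 in the interaction, 0 in HF + LP minus LP, 0 in HF + LP minus NP, and 2 (Irf7 and Stat2) in LP minus NP. In HF minus NP, Irf7, Irf8, and Irf9 passed under the block, and Irf5 and Ifnar2 no longer did. Over all genes the block left 2 calls, against 67, over the 4 diets and 2, against 37, in HF minus NP. These values also reflect fewer mice, since only LP mice 2 and 5 and NP mice 3, 4, and 5 then count in their groups. Under the block, log2 fold changes that turned were Ifnar1 in HF minus NP (-0.053), Ifnar2 (0.066), Irf1 (-0.11), and Irf8 (-0.019) in LP minus NP, Irf1 (0.15), Irf5 (0.17), Irf8 (0.21), and Stat2 (0.32) in HF + LP minus LP, and Irf1 in HF + LP minus NP (0.036).

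In LP minus NP, 1 gene passed an unadjusted p under 0.05 with DESeq2, 1 with only the compared groups in the model, and 1 without HF mouse 1 and LP mouse 13, which was Irf7 each time, as well as 1 with the library name number, which was Irf8, and 0 to 2 when each mouse was left out. In HF + LP minus LP, 0 passed without LP mice 13 and 20, and 1 to 2 when each mouse was left out. In the interaction, 1 passed without LP mice 13 and 20, and 1 to 5 when each mouse was left out.

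Small log2 fold changes also turned. In LP minus NP, Ifnar2 was 0.010 with at least 10 counts in every library, 0.035 with the library name number, 0.00051 with only the compared groups, 0.040 without LP mice 13 and 20, and 0.023 without HF mouse 1 and LP mouse 13, and Ifnar1 was 0.027 with the library name number and 0.087 without HF mouse 1 and LP mouse 13. Ifnar1 in HF minus NP was -0.045 without those mice. In HF + LP minus LP, Irf9 was -0.0021 with at least 10 counts, -0.044 with the library name number, -0.0096 without LP mice 13 and 20, and -0.032 without HF mouse 1 and LP mouse 13, and Irf5 was 0.19 and Irf8 0.075 without LP mice 13 and 20. Without the 2 farthest mice, the within-diet r was -0.031 for Irf9 and Ifnar2, -0.031 for Stat2 and Ifnar1, and -0.00044 for Irf9 and Ifnar1. When each mouse was left out, Ifnar1 ran from -0.18 to 0.14 in HF minus NP. In LP minus NP, Stat2 ran from -0.25 to 0.059, Ifnar1 from -0.25 to 0.087, and Ifnar2 from -0.091 to 0.090. In HF + LP minus LP, Irf8 ran from -0.35 to 0.053 and Irf9 from -0.040 to 0.13, and in HF + LP minus NP, Irf1 ran from -0.13 to 0.070 and Irf7 from -0.61 to 0.042. The interaction of Ifnar2 ran from -0.14 to 0.040. Irf5 and Ifnar1, with mean counts under 50, have the least precise values.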
